A study of Mus musculus with 8 samples.

Results

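The mitochondrial ribosomal proteins are the nuclear-encoded proteins of the ribosome that works inside mitochondria. Their genes were taken as the protein-coding genes whose symbol begins with Mrpl or Mrps followed by a digit. The rule found 78 genes among the 54532 in the table and left out 5 pseudogenes with matching symbols. Mrpl symbols, named for the large subunit, numbered 49, and Mrps symbols, named for the small subunit, numbered 29. Mrps30, Mrps18a and Mrps36 are exceptions to this naming, as given below. RNA of mouse brown adipose tissue, a heat-producing fat, was sequenced in 2 groups of 4 samples. In the OGTBKO group Ogt, which encodes the enzyme that adds O-GlcNAc sugars to proteins inside the cell, was knocked out specifically in brown adipocytes. The WT group was wild type. The labels give standard chow, housing at 23 °C, induction after 8 weeks with an agent they spell "gomaxifen", and collection 2 months later with the surrounding white fat taken away. They do not state the driver or allele of the knockout, nor that each sample came from a separate animal. The p-values therefore measure the spread between these samples.

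The mitochondrial ribosome translates the messenger RNAs of the mitochondrial genome, which encode core subunits of the respiratory chain and of the ATP synthase. It consists of ribosomal RNAs transcribed in the mitochondrion and of proteins made in the cytosol and imported. Some of these proteins descend from bacterial ribosomal proteins, and others were added during the evolution of mitochondria and have no bacterial counterpart. Brown adipocytes are dense with mitochondria, and their respiratory chain drives heat production.

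Libraries held between 14409348 and 15897920 reads in genes in the OGTBKO group and between 13393962 and 15293657 in the WT group. Levels are given in FPKM, fragments per kilobase of exon, scaled for depth by the authors. Ogt measured 10.7, 14.5, 12.8 and 11.8 FPKM in OGTBKO 1 to 4, against 33.1, 24.7, 23.9 and 22.5 FPKM in WT 1 to 4, and the groups did not overlap (log2 change -1.03 ± 0.14, limma adjusted p = 0.00511). The knockout is described as specific to brown adipocytes, and the label "adipocytes" was given to tissue taken whole. Which cells the remaining Ogt RNA came from was not tested. Genes of the mitochondrial genome took 25.2% to 30.2% of reads in OGTBKO libraries and 27.2% to 39.4% in WT libraries, with the highest share in WT 3. The summed level of 6 brown adipocyte markers was 2745 to 3141 FPKM in OGTBKO libraries and 2836 to 4225 FPKM in WT libraries. The summed levels of the adipocyte, endothelial, macrophage, fibroblast, skeletal muscle and nerve marker lists also overlapped between the groups, and Dbh of the nerve list was at 0 in every library. Of the single markers, 1 of 6 for brown adipocytes was called lower, and 1 of 5 for adipocytes and 1 of 5 for endothelial cells were called higher. Skeletal muscle markers ranged widely, from 0.966 to 1275 FPKM in OGTBKO and from 0.481 to 424 FPKM in WT libraries, and were highest in OGTBKO 1 and WT 1. Left out of both groups, these 2 libraries took the count of mitochondrial ribosomal protein genes called higher to 22. The part of these markers and of the mitochondrial share in the results below was otherwise not tested. In whole tissue, fewer cells of a type and less RNA per cell cannot be told apart.

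Among the genes of the mitochondrial ribosome that passed the test, all except Mrps17 were higher in OGTBKO tissue. Of the 77 tested, 26 were called higher (33.8%), 1 lower and 50 in neither direction (limma on log2(FPKM + 0.5), Benjamini-Hochberg adjusted p under 0.05 over 13171 genes). Among all genes tested 8.11% were called higher and 7.46% lower, 15.6% in all. The median log2 change of the 77 genes was 0.32, against a median of -0.00 over all genes, and 62 of the 77 changes were above 0. At an unadjusted p under 0.05, 41 genes were higher and 4 lower, against 2201 and 2114 of the 13171 genes tested. The 4 OGTBKO values lay wholly above the 4 WT values for 26 genes and wholly below for 2, against 11.1% and 11.4% of all genes tested. A difference of at least 1.5-fold on the log2 scale was measured for 14 genes, all higher in OGTBKO tissue, of which Mrps18c did not pass the test. For 31 of the 50 genes that did not pass, the 95% interval of the change lay within 1.5-fold in either direction. The remaining gene, Mrpl53, was at 0 in all 8 libraries and was not tested. Of its exon bases 88.0% are shared with Gm42688 on the same strand and Ccdc142os on the other, and reads there cannot be assigned to 1 gene.

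**Figure D1:**
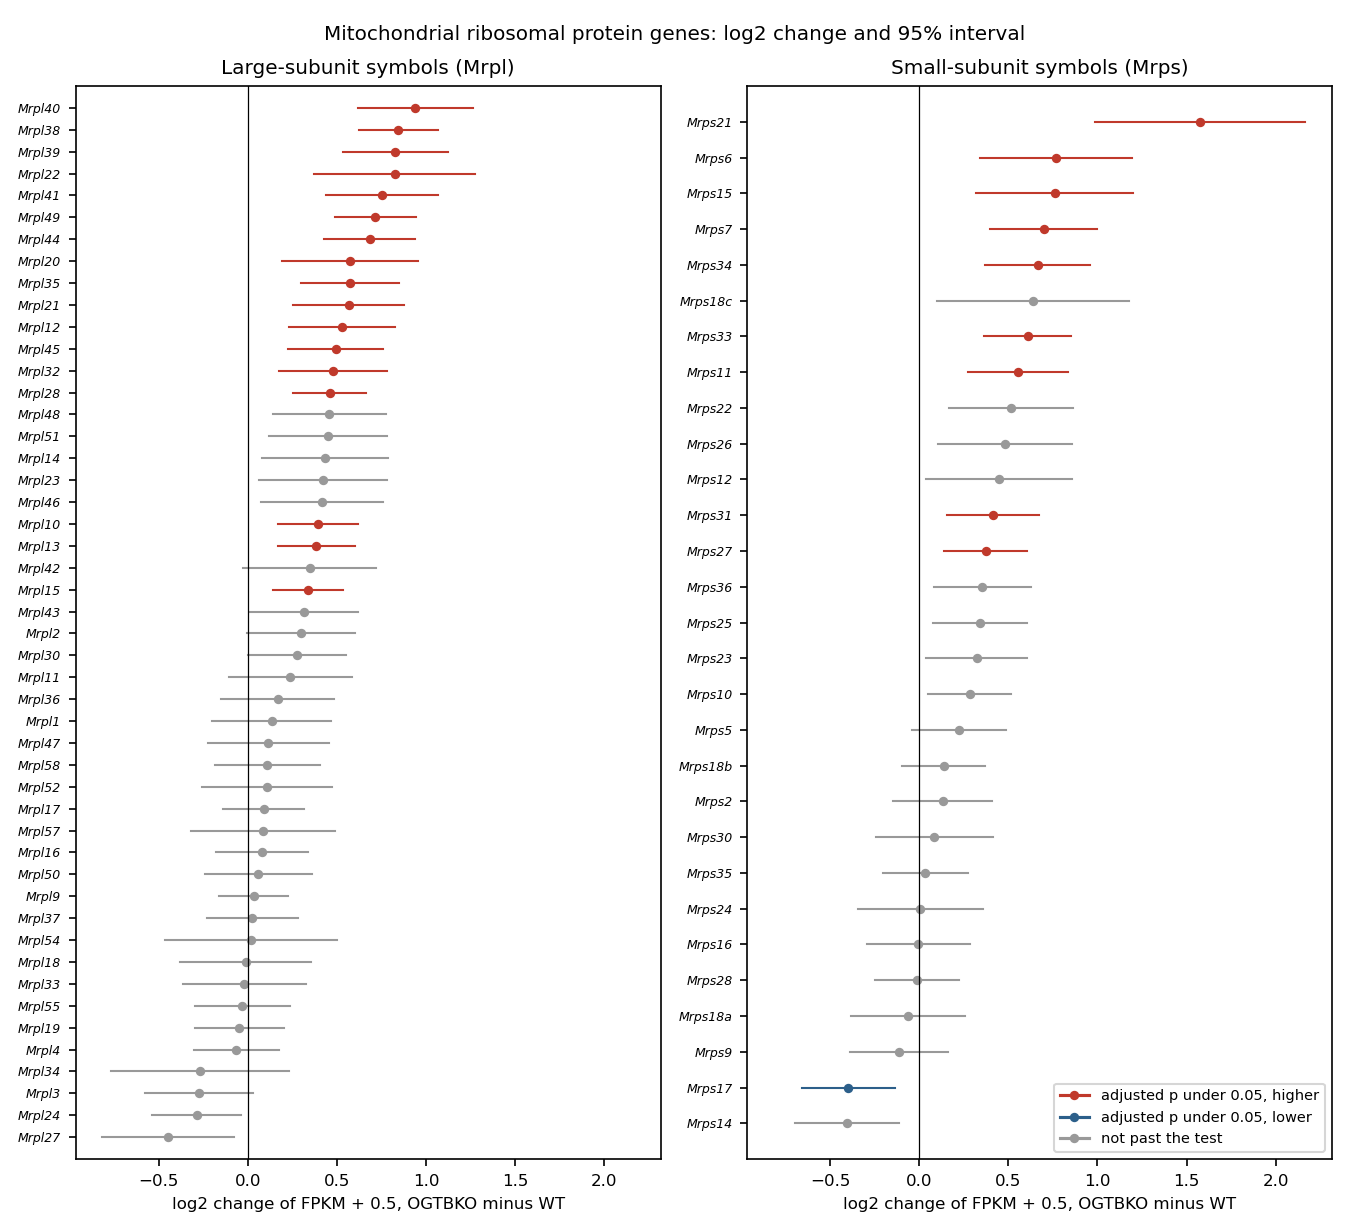
Log2 change (OGTBKO minus WT, on log2(FPKM + 0.5)) of the 77 tested genes with 95% intervals, Mrpl genes on the left and Mrps genes on the right, each sorted by change. The 26 genes in red passed the test upward and Mrps17 in blue passed downward, with Mrps21 farthest to the right.

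The count of calls rested in part on single libraries. It stood at 10 higher without OGTBKO 3, 13 without OGTBKO 4, 13 without WT 2 and 17 without OGTBKO 2. Without OGTBKO 1, WT 1, WT 3 or WT 4 it stood between 20 and 24. Calls over all genes dropped in the same fits, to 694 without OGTBKO 3, 957 without OGTBKO 4, 771 without WT 2 and 1173 without OGTBKO 2, against 2050 with all 8 libraries. The median log2 change stayed between 0.29 and 0.35 in all 8 of these fits. The 10 genes called higher in every one of them were Mrpl38, Mrpl39, Mrpl40, Mrpl41, Mrpl44, Mrpl49, Mrps7, Mrps21, Mrps33 and Mrps34. They make up 13.0% of the 77 genes, against 2.87% of all genes tested.

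The shift was present in the level of each library. The mean deviation of the 77 genes from their 8-library mean, on the log2 scale, was 0.11, 0.04, 0.19 and 0.26 in OGTBKO 1 to 4, against -0.09, -0.13, -0.32 and -0.05 in WT 1 to 4. Every OGTBKO library was above every WT library, with WT 3 the lowest. Their summed level was 1465, 1386, 1522 and 1612 FPKM in OGTBKO 1 to 4, against 1255, 1241, 1058 and 1317 FPKM in WT 1 to 4. The means of these sums were 1496 ± 95.1 FPKM in OGTBKO and 1218 ± 111 FPKM in WT tissue (SD, n = 4 each). In WT 3, 3 of the 77 genes lay above their own 8-library mean, against 65 in OGTBKO 4, and WT 3 was also the library with the highest mitochondrial share of reads. Without WT 3, 23 genes were called higher and 4 lower.

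**Figure D2:**
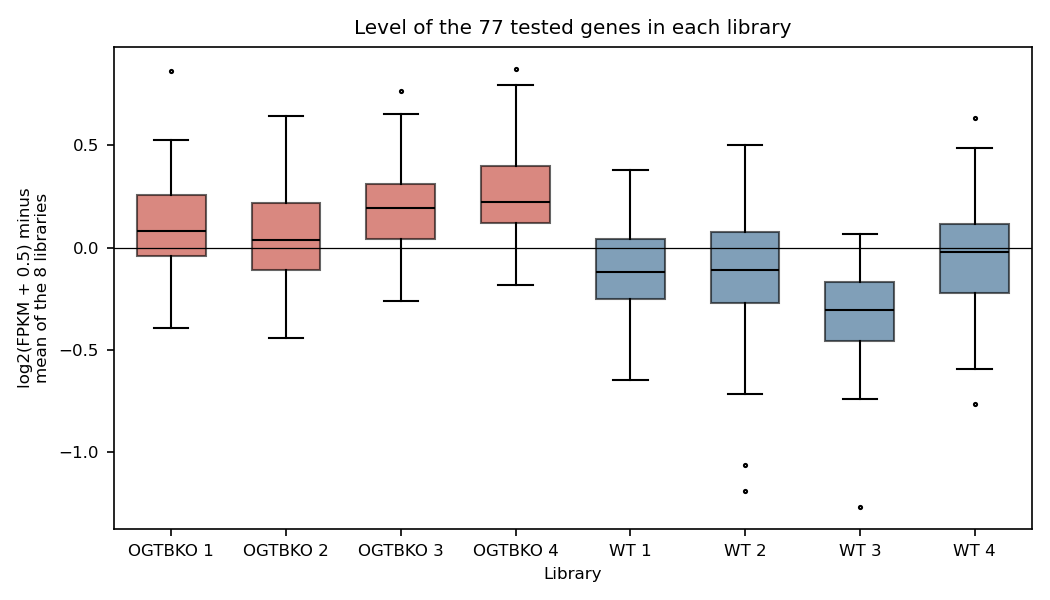
Deviation of log2(FPKM + 0.5) from each gene's mean over 8 libraries, for the 77 tested genes, by library. Boxes show median and quartiles, whiskers reach 1.5 times the interquartile range and dots are genes beyond them; the OGTBKO medians lie above 0 and the WT medians below it, WT 3 lowest.

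Promoters of these genes are shown for a pair of motifs linked to mitochondrial genes, the site of nuclear respiratory factor 1 (NRF1) and that of ETS factors, the family of GABPA. RefSeq promoters (GRCm38.p6, from 250 bases before to 50 after the start) were matched by symbol for 69 of the 78 genes and searched on both strands. The first 5 below belong to genes called higher and carry the NRF1 motif on either strand, its matches in capitals. Mrpl22, called higher, and Mrpl27, which was not, carry the ETS motif CCGGAAG at nearly the same distance, 53 and 55 bases before the start. Each line gives the 130 bases before the RefSeq start on the strand of the gene, with the motif in capitals. The stretch of Mrpl39 lies wholly inside the span of the gene given further below, whose start differs from that of RefSeq.
Mrps21 (chr3:95871515-95871644, minus strand): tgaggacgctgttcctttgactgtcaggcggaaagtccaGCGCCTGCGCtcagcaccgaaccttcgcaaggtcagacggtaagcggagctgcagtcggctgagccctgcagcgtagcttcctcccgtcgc
Mrpl39 (chr16:84735245-84735374, minus strand): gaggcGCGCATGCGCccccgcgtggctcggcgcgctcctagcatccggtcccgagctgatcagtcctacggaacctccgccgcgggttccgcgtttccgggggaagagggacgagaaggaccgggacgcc
Mrpl44 (chr1:79775888-79776017, plus strand): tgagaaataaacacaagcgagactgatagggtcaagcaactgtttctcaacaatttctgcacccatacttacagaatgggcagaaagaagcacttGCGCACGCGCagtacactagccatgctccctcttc
Mrpl45 (chr11:97315586-97315715, plus strand): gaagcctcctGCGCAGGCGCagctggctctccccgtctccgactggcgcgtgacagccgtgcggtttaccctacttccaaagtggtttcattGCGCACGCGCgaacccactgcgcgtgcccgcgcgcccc
Mrpl12 (chr11:120484507-120484636, plus strand): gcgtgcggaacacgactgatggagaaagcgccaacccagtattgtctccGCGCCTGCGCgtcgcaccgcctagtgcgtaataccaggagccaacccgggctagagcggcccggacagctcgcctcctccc
Mrpl22 (chr11:58171534-58171663, plus strand): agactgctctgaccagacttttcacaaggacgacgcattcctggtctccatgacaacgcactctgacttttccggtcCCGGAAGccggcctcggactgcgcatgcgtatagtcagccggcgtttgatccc
Mrpl27 (chr11:94653661-94653790, plus strand): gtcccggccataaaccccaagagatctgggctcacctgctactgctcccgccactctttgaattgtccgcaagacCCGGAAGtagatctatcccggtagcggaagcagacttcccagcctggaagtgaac

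A gene was counted if any of its promoters held the motif, and the 69 genes have 75 promoters. The ETS motif was present for 26 of the 69 genes (37.7%). The share was 20.4% of 9283 tested genes with a RefSeq promoter and 9.93% of all 27025 genes in the promoter table. The NRF1 motif was present in 13 (18.8%), against 12.0% and 5.19%. The YY1 motif AAGATGGCG was present in 8 (11.6%), against 3.77% and 1.64%, and the E-box CACGTG in 5 (7.25%), against 11.9% and 8.09%. None of these motifs contains another. Among the genes called higher, 6 of 22 had the NRF1 motif, against 7 of 46 tested genes not called higher. For the ETS motif the counts were 5 of 22 and 20 of 46. These shares are descriptions, and a match is not evidence of a bound factor.

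Proteins of the large subunit without a bacterial counterpart held 7 genes called higher and 0 lower of 20 tested (median log2 change 0.38). The 7 are 35.0%, and among all genes tested 8.11% were called higher and 7.46% lower. At an unadjusted p under 0.05 (limma), 11 were higher and 0 lower, against 2201 and 2114 of the 13171 genes tested. Mrpl38 (chromosome 11, 116131817 to 116138868, minus strand, mm10), whose protein resembles phosphatidylethanolamine-binding proteins, had the smallest p of all 77 genes. It measured 28.9, 24.3, 28.1 and 26.3 FPKM in OGTBKO 1 to 4, against 13.3, 15.8, 14.9 and 15.0 FPKM in WT 1 to 4. The groups were far apart, and the log2 change was 0.85 ± 0.10 (SE; limma adjusted p = 0.00281). Mrpl49 (chromosome 19, 6053630 to 6057751, minus strand) had 23.4, 25.9, 26.4 and 27.6 FPKM in OGTBKO libraries, against 15.1, 17.4, 13.9 and 15.8 FPKM in WT libraries. Its change was 0.72 ± 0.10 (limma adjusted p = 0.00503), without overlap between the groups.

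Mrpl40 (chromosome 16, 18872018 to 18876862, minus strand) measured 14.7, 13.8, 16.1 and 19.0 FPKM in OGTBKO libraries, against 7.00, 7.34, 7.72 and 10.2 FPKM in WT libraries. Each group had its highest value in library 4, and the groups did not overlap (log2 change 0.94 ± 0.14, limma adjusted p = 0.00670). Mrpl39 (chromosome 16, 84717576 to 84735742, minus strand) is a relative of threonyl-tRNA synthetase. Its RefSeq promoter holds an NRF1 motif 125 bases before the RefSeq start, in a stretch that lies inside the span given here. Mrpl39 had 28.0, 30.9, 28.6 and 38.3 FPKM in OGTBKO libraries, against 20.3, 16.2, 15.6 and 17.8 FPKM in WT libraries. The groups were separate, with OGTBKO 4 the highest (log2 change 0.83 ± 0.13, limma adjusted p = 0.00743). Mrpl44 (chromosome 1, 79776018 to 79781445, plus strand), with a domain like that of ribonuclease III, had 21.6, 22.2, 26.0 and 24.6 FPKM in OGTBKO libraries, against 15.6, 14.9, 12.1 and 15.5 FPKM in WT libraries. Its groups were separate too (log2 change 0.68 ± 0.11, limma adjusted p = 0.00878), and its NRF1 motif, 35 bases before the start, is the nearest to it among those shown above.

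Mrpl41 (chromosome 2, 24974117 to 24975098, minus strand), reported in human cells to bind the apoptosis regulator BCL2, measured 23.2, 18.9, 23.1 and 24.6 FPKM in OGTBKO libraries, against 14.1, 10.2, 13.1 and 15.3 FPKM in WT libraries. The lowest value of each group came from library 2, and the groups did not overlap (log2 change 0.75 ± 0.14, limma adjusted p = 0.0114). Mrpl45, a relative of the import motor subunit TIM44 that lies where the ribosome meets the inner membrane, averaged 26.1 ± 3.76 FPKM in OGTBKO and 18.3 ± 0.827 FPKM in WT tissue (SD, n = 4 each). Its change was 0.49 ± 0.12 (limma adjusted p = 0.0264), and the call ended without OGTBKO 2, OGTBKO 3, OGTBKO 4, WT 2 or WT 4. Among the genes of this kind that did not pass, Mrpl58, a peptidyl-tRNA hydrolase that rescues stalled ribosomes, averaged 8.12 ± 0.982 and 7.51 ± 1.12 FPKM in OGTBKO and WT tissue (log2 change 0.11, 95% interval -0.19 to 0.40). Mrpl48 averaged 4.48 ± 0.838 and 3.10 ± 0.370 FPKM, with overlapping groups (log2 change 0.46, limma adjusted p = 0.0558). A pair of proteins with Mrps symbols belong to the large subunit in mammals, and neither passed. Mrps30 measured 5.23 ± 0.855 FPKM in OGTBKO and 4.90 ± 0.788 FPKM in WT tissue, and Mrps18a measured 8.46 ± 0.953 FPKM in OGTBKO and 8.93 ± 1.74 FPKM in WT tissue.

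Proteins of the large subunit with bacterial homologs held 10 genes called higher and 0 lower of 30 tested (median log2 change 0.20). The 10 are 33.3%, and among all genes tested 8.11% were called higher and 7.46% lower. At an unadjusted p under 0.05 (limma), 13 were higher and 2 lower, against 2201 and 2114 of the 13171 genes tested. The largest change among those called was that of Mrpl22, whose bacterial homolog lines the exit tunnel of the nascent chain. It measured 16.0, 14.3, 15.0 and 16.1 FPKM in OGTBKO libraries, against 10.8, 5.20, 8.57 and 10.4 FPKM in WT libraries. OGTBKO values lay close together and above all WT values, of which WT 2 was lowest (log2 change 0.83 ± 0.20, limma adjusted p = 0.0276). The call of Mrpl22 ended when any 1 OGTBKO library was left out. Mrpl28 averaged 42.6 ± 2.19 FPKM in OGTBKO and 30.8 ± 1.97 FPKM in WT tissue (log2 change 0.46 ± 0.09, limma adjusted p = 0.0143), a call that ended without OGTBKO 3. Mrpl35 averaged 15.4 ± 2.63 and 10.1 ± 0.414 FPKM in OGTBKO and WT tissue (log2 change 0.57 ± 0.12, limma adjusted p = 0.0180), a call that ended without OGTBKO 3 or WT 2.

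The stalk of the large subunit, which recruits translation factors, is built from the products of Mrpl10 and Mrpl12. Mrpl12 measured 33.9, 25.5, 36.5 and 26.6 FPKM in OGTBKO libraries, against 22.4, 21.5, 20.0 and 19.4 FPKM in WT libraries. OGTBKO 1 and OGTBKO 3 stood above the other OGTBKO libraries, and all 4 were above WT (log2 change 0.53 ± 0.13, limma adjusted p = 0.0294). Mrpl10, among the 5 most abundant of the 77 genes, measured 49.4, 43.3, 46.7 and 45.0 FPKM in OGTBKO libraries, against 32.7, 35.6, 32.4 and 39.5 FPKM in WT libraries. The groups were separate (log2 change 0.39 ± 0.10, limma adjusted p = 0.0308). Neither call was stable: that of Mrpl10 ended without any 1 of OGTBKO 1 to 4, WT 1 or WT 2, and that of Mrpl12 without OGTBKO 1, OGTBKO 3, WT 2 or WT 4.

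Higher levels were also called for Mrpl21 (log2 change 0.57), Mrpl13 (0.39), Mrpl15 (0.34), Mrpl20 (0.57) and Mrpl32 (0.48), with limma adjusted p between 0.0276 and 0.0494. Each of these calls ended in 5 to 7 of the 8 fits without 1 library, those without OGTBKO 2, OGTBKO 3, OGTBKO 4 and WT 2 among them. Mrpl32, the substrate by which the mitochondrial protease m-AAA is known to govern ribosome assembly in yeast, was named after its values were seen. It averaged 5.39 ± 0.791 FPKM in OGTBKO and 3.73 ± 0.593 FPKM in WT tissue, and its groups overlapped. Mrpl34 had the highest level of the 77 genes, 79.4, 54.8, 59.2 and 65.4 FPKM in OGTBKO libraries, against 81.0, 79.6, 50.3 and 109 FPKM in WT libraries. The groups overlapped widely (log2 change -0.27, 95% interval -0.77 to 0.23). Mrpl16 measured 39.0 ± 3.80 FPKM in OGTBKO and 36.9 ± 3.90 FPKM in WT tissue (95% interval of the log2 change -0.18 to 0.34). At the low end, Mrpl33 measured 2.14 ± 0.235 FPKM in OGTBKO and 2.20 ± 0.505 FPKM in WT tissue, and Mrpl23 measured 3.07 ± 0.233 FPKM in OGTBKO and 2.21 ± 0.597 FPKM in WT tissue (limma adjusted p = 0.101).

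**Figure D3:**
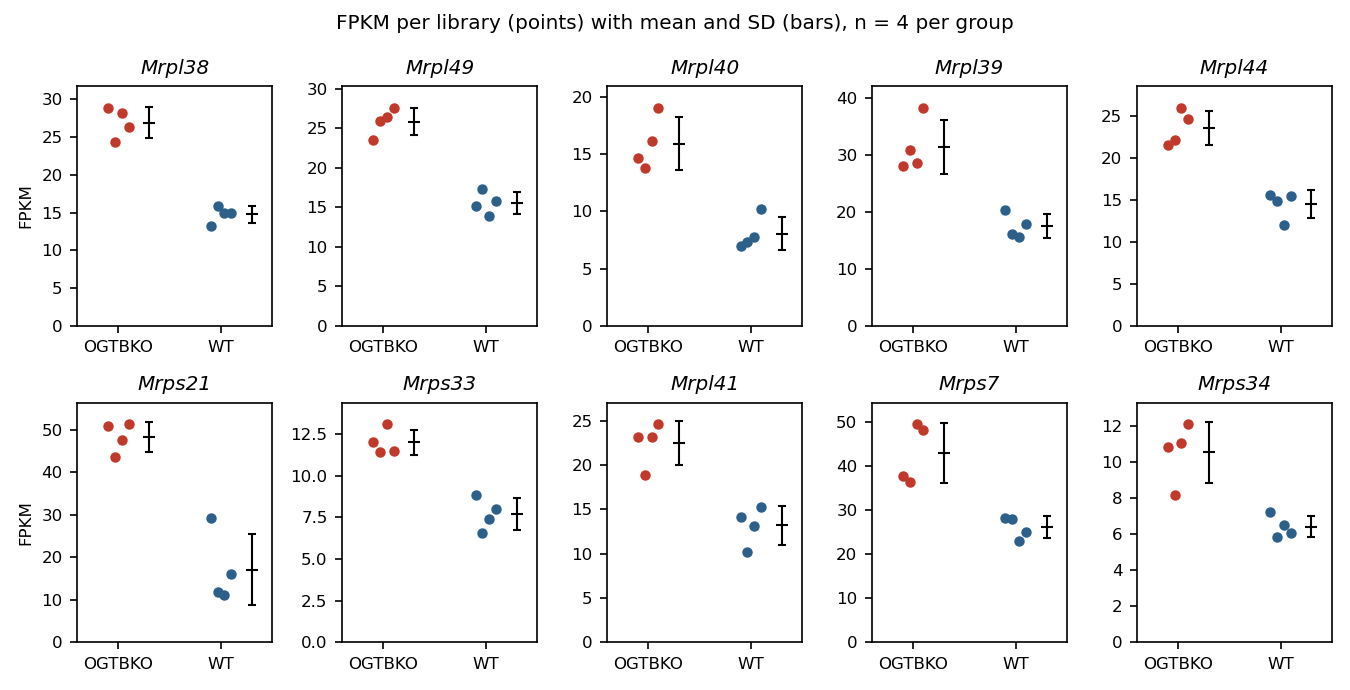
FPKM in each library (points, OGTBKO red and WT blue) with mean and SD (black bars, n = 4 each) for the 10 genes called higher with any single library left out, each on its own axis from 0. In all 10 the OGTBKO points lie above the WT points, with the widest gap for Mrps21, where WT 1 stands above the other WT libraries.

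In the small subunit, proteins with bacterial homologs held 5 genes called higher and 1 lower of 16 tested (median log2 change 0.25). These are 31.25% and 6.25%, against 8.11% and 7.46% of all genes tested. At an unadjusted p under 0.05 (limma), 8 were higher and 2 lower, against 2201 and 2114 of the 13171 genes tested. Mrps21 (chromosome 3, 95862634 to 95871519, minus strand) changed most of all 77 genes. It measured 51.0, 43.7, 47.6 and 51.3 FPKM in OGTBKO libraries, against 29.2, 11.9, 11.2 and 16.1 FPKM in WT libraries. OGTBKO values lay close together, while WT 1 was well above the other WT libraries, and the groups did not overlap. Means were 48.4 ± 3.56 FPKM in OGTBKO and 17.1 ± 8.33 FPKM in WT tissue (SD, n = 4 each), 2.83-fold higher in OGTBKO (log2 change 1.58 ± 0.26, limma adjusted p = 0.00878). Its promoter, printed first above, carries an NRF1 motif 91 bases before the start.

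Mrps7 (chromosome 11, 115603925 to 115608036, plus strand), homolog of the bacterial protein that organizes the head of the subunit, had 37.7, 36.3, 49.4 and 48.2 FPKM in OGTBKO libraries, against 28.3, 28.0, 23.0 and 25.1 FPKM in WT libraries. OGTBKO 3 and OGTBKO 4 were highest, and the groups did not overlap (log2 change 0.70 ± 0.13, limma adjusted p = 0.0127). Mrps11 averaged 7.34 ± 0.257 FPKM in OGTBKO and 4.90 ± 0.851 FPKM in WT tissue (log2 change 0.55 ± 0.12, limma adjusted p = 0.0213), a call that ended without OGTBKO 3 or OGTBKO 4. Mrps6 measured 12.3, 17.0, 20.2 and 18.4 FPKM in OGTBKO libraries, against 12.5, 10.4, 7.46 and 8.70 FPKM in WT libraries. OGTBKO 1 fell below WT 1, so that the groups overlapped (log2 change 0.77 ± 0.19, limma adjusted p = 0.0283). Mrps15 also overlapped, with 26.0, 33.4, 41.7 and 43.4 FPKM in OGTBKO libraries, against 23.1, 17.0, 26.2 and 17.8 FPKM in WT libraries (log2 change 0.76 ± 0.20, limma adjusted p = 0.0325). The calls of Mrps6 and Mrps15 ended without OGTBKO 2, OGTBKO 3, OGTBKO 4, WT 2 or WT 4.

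Mrps12, whose product lies at the decoding centre, averaged 17.7 ± 0.762 FPKM in OGTBKO and 13.2 ± 3.74 FPKM in WT tissue, and WT 4 reached the OGTBKO range (log2 change 0.45, limma adjusted p = 0.125). The 3 Mrps18 genes are paralogs, of which the lists used here count Mrps18c with the bacterial homologs, and Mrps18a and Mrps18b with the proteins without a bacterial counterpart. Mrps18b averaged 12.5 ± 1.29 FPKM in OGTBKO and 11.3 ± 0.801 FPKM in WT tissue (95% interval of the log2 change -0.09 to 0.37). Mrps18c averaged 11.0 ± 2.82 FPKM in OGTBKO and 7.00 ± 2.59 FPKM in WT tissue (log2 change 0.64, limma adjusted p = 0.0991). With Mrps18a given above, none of the 3 passed, and all had overlapping groups.

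Small-subunit proteins without a bacterial counterpart held 4 genes called higher and 0 lower of 10 tested, and all 10 changes were above 0 (median 0.39). The 4 are 40.0%, and among all genes tested 8.11% were called higher and 7.46% lower. At an unadjusted p under 0.05 (limma), 8 were higher and 0 lower, against 2201 and 2114 of the 13171 genes tested. Mrps33 (chromosome 6, 39801804 to 39810988, minus strand) had 12.0, 11.4, 13.1 and 11.5 FPKM in OGTBKO libraries, against 8.87, 6.58, 7.42 and 8.00 FPKM in WT libraries. Both groups were tight and separate (log2 change 0.61 ± 0.11, limma adjusted p = 0.0103). Mrps34 (chromosome 17, 24895116 to 24897502, plus strand), mutated in some human patients with Leigh syndrome, had 10.8, 8.15, 11.0 and 12.1 FPKM in OGTBKO libraries, against 7.20, 5.85, 6.50 and 6.07 FPKM in WT libraries. The groups did not overlap (log2 change 0.66 ± 0.13, limma adjusted p = 0.0138). Of its exon bases 77.8% are shared with Mapk8ip3 and Nme3, so its level is uncertain.

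Mrps27, a pentatricopeptide repeat protein, averaged 22.1 ± 1.21 FPKM in OGTBKO and 17.0 ± 1.83 FPKM in WT tissue (log2 change 0.37 ± 0.10, limma adjusted p = 0.0404), a call that held without OGTBKO 1 or WT 4 and ended without any other library. Mrps31 averaged 10.5 ± 1.61 FPKM in OGTBKO and 7.69 ± 0.394 FPKM in WT tissue (log2 change 0.41 ± 0.12, limma adjusted p = 0.0414), a call that held without OGTBKO 2 and ended without any other library. Mrps22 measured 6.32, 8.56, 9.34 and 11.4 FPKM in OGTBKO libraries, against 5.89, 5.90, 5.92 and 6.10 FPKM in WT libraries. WT values were nearly equal and all below OGTBKO, whose own spread was wide, and the test was not passed (log2 change 0.52 ± 0.15, limma adjusted p = 0.0521). Mrps23 averaged 40.8 ± 1.71 FPKM in OGTBKO and 32.8 ± 5.27 FPKM in WT tissue (limma adjusted p = 0.112), and Mrps25 averaged 3.04 ± 0.261 FPKM in OGTBKO and 2.30 ± 0.345 FPKM in WT tissue (limma adjusted p = 0.0781). Mrps25 shares 69.8% of its exon bases with Nr2c2. Mrps36, kept by its symbol, is now known as a subunit of the 2-oxoglutarate dehydrogenase complex and belongs to neither subunit. It averaged 56.6 ± 5.31 FPKM in OGTBKO and 44.3 ± 6.00 FPKM in WT tissue, with overlapping groups (log2 change 0.35, limma adjusted p = 0.0765).

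A single gene was called lower. Mrps17, homolog of a bacterial protein that binds ribosomal RNA early in assembly, fell to 5.56, 6.16, 5.80 and 6.24 FPKM in OGTBKO libraries, against 8.54, 8.91, 6.37 and 8.32 FPKM in WT libraries. WT 3 lay just above the highest OGTBKO library, and the groups did not overlap (log2 change -0.40 ± 0.12, limma adjusted p = 0.0477). The call ended in 7 of the 8 fits without 1 library and held without WT 3. The other negative changes named here did not pass, those of Mrpl27 and Mrps14 being larger than that of Mrps17. Mrpl27 averaged 17.9 ± 1.89 FPKM in OGTBKO and 24.9 ± 5.56 FPKM in WT tissue (log2 change -0.45, limma adjusted p = 0.0938). Mrps14 averaged 13.6 ± 1.44 FPKM in OGTBKO and 18.2 ± 2.58 FPKM in WT tissue (log2 change -0.40, limma adjusted p = 0.0645). Mrpl24 averaged 10.5 ± 0.311 FPKM in OGTBKO and 12.9 ± 1.83 FPKM in WT tissue, without overlap (log2 change -0.29, limma adjusted p = 0.108). Mrpl3 averaged 12.1 ± 1.81 FPKM in OGTBKO and 14.8 ± 1.90 FPKM in WT tissue (log2 change -0.27, limma adjusted p = 0.194).

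The rises took place beside a trend of all genes with base composition. Over all genes tested, the log2 change correlated with GC content at r = 0.33 (n = 13161 genes), and over the 77 genes at r = 0.12. These are descriptions across genes measured in the same libraries, which are not independent replicates. For each library, the deviation of the log2 level from each gene's 8-library mean was fitted on GC content. The slope was 0.0222, 0.0048, 0.0163 and 0.0055 per percentage point in OGTBKO 1 to 4, against -0.0137, -0.0149, -0.0124 and -0.0078 in WT 1 to 4. These slopes compare the libraries with each other and do not describe the level itself. The 77 genes had a median GC content of 50.4%, close to the 49.8% of all genes tested, but were shorter, with a median exon length of 2255 bases against 3844. Of the 39 genes at or above the median GC content of the 77, 17 were called higher, against 9 of the 38 below it. Of the 38 shorter genes 18 were called higher, against 8 of the 39 longer ones. With the trends removed, as described next, 8 genes of higher GC content and 11 of lower were called higher. By length the counts were then 8 shorter and 11 longer genes. The splits are not separate, since the genes of higher GC content had a median length of 1533 bases, against 4017.

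With the trend of each library on GC content and length removed, 19 of the 77 genes were called higher and 2 lower, against 5.82% and 4.87% of all genes tested, and the median log2 change was 0.23. Before and after removal alike 16 genes were called higher (20.8%), against 4.69% of all genes tested. They were Mrpl13, Mrpl15, Mrpl32, Mrpl35, Mrpl38, Mrpl39, Mrpl40, Mrpl41, Mrpl44, Mrpl45, Mrpl49, Mrps6, Mrps7, Mrps21, Mrps31 and Mrps33. Calls that ended were those of Mrpl10, Mrpl12, Mrpl20, Mrpl21, Mrpl22, Mrpl28, Mrps11, Mrps15, Mrps27 and Mrps34, all higher before, and that of Mrps17. Mrpl28 moved far, to a limma adjusted p of 0.211. Mrpl48 (limma adjusted p = 0.0275), Mrps22 (0.0479) and Mrps25 (0.0383) were called higher after removal alone, and Mrpl24 (0.0476) and Mrpl27 (0.0323) were called lower. Proteins without a bacterial counterpart kept their medians, with 8 of 20 called higher in the large subunit (median 0.38) and 4 of 10 in the small subunit (median 0.39). Among proteins with bacterial homologs the counts were 4 of 30 higher and 2 lower in the large subunit (median 0.15), and 3 of 16 higher in the small subunit (median 0.22). The difference between these lists was not tested.

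**Figure D4:**
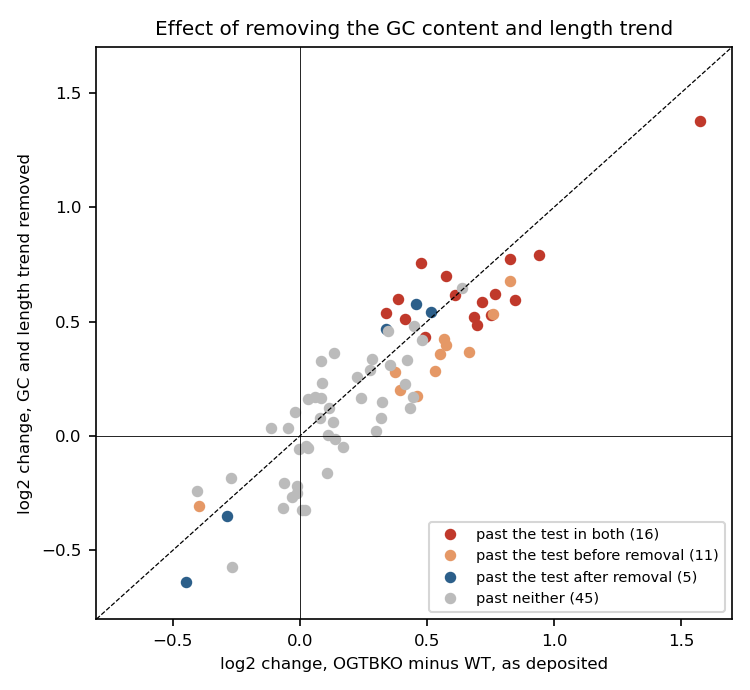
Log2 change (OGTBKO minus WT) of the 77 tested genes as deposited (x axis) and after removal of each library's GC content and length trend (y axis), with the line of equality dashed. Red points passed the test in both (16, Mrps21 at the upper right), orange before removal (11), blue after removal (5) and grey in neither (45).

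Many of these genes lie close to others in the genome. Exon bases are shared with another annotated gene in 33 of the 78, by over 10% in 18, and strand use in counting is not given in the sources used here. Mrps11 and Mrpl46 overlap each other. Among the 60 tested genes with at most 10% of their bases shared, 20 were called higher and 1 lower (median log2 change 0.29). These are 33.3% and 1.67%, against 8.11% and 7.46% of all genes tested. A protein-coding gene on the other strand starts at most 500 bases upstream of 17 of the 78 genes (21.8%), against 9.55% of 11326 tested protein-coding genes. Pairs that overlap at their starts, as Mrps11 and Mrpl46 do, were not counted. Of the 17, 6 were called higher (35.3%, against 33.8% of the 77 tested), and all 17 changes were above 0. Of the 15 tested partners, 0 were called by limma, against 15.6% of all genes tested. At an unadjusted p under 0.05 (limma), 3 partners were higher and 1 lower, against 2201 and 2114 of the 13171 genes tested. The difference between the genes and their partners was not tested. Mrpl40, with a log2 change of 0.94, faces the histone chaperone gene Hira at 175 bases (log2 change -0.00, limma adjusted p = 0.996). Mrpl49 faces Fau, which encodes a cytosolic ribosomal protein, at 59 bases (log2 change 0.29, limma adjusted p = 0.188).

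Mitochondrial ribosomal proteins under other symbols were examined as well. Of 5, 2 were called higher (40.0%, against 8.11% of all genes tested) and 0 lower (at an unadjusted p under 0.05, 4 and 0). Dap3, a GTP-binding protein of the small subunit, measured 11.8, 12.8, 12.4 and 13.8 FPKM in OGTBKO libraries, against 7.11, 7.76, 6.96 and 7.85 FPKM in WT libraries. The groups were tight and separate (log2 change 0.74 ± 0.09, limma adjusted p = 0.00368). Gadd45gip1, of the large subunit, measured 6.79, 5.73, 8.63 and 7.08 FPKM in OGTBKO libraries, against 3.70, 2.63, 3.52 and 1.79 FPKM in WT libraries. These groups did not overlap (log2 change 1.17 ± 0.20, limma adjusted p = 0.00945), and both calls held with any 1 library left out. Ptcd3 (log2 change 0.37, limma adjusted p = 0.0659), Chchd1 (0.34, 0.149) and Aurkaip1 (0.14, 0.426), all of the small subunit, did not pass, although Ptcd3 was called with the trend removed (limma adjusted p = 0.0131).

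Among genes that assemble the ribosome and modify its RNA, the share called higher was near that of all genes. Of 25 tested, 2 were called higher (8.0%, against 8.11% of all genes tested) and 0 lower, with a median log2 change of -0.02 (at an unadjusted p under 0.05, 4 were higher and 2 lower). The GTPase Noa1 averaged 7.67 ± 0.574 FPKM in OGTBKO and 5.52 ± 0.284 FPKM in WT tissue (log2 change 0.44 ± 0.09, limma adjusted p = 0.0159), a call that ended without OGTBKO 3 or WT 2. Mterf4, which brings an RNA methyltransferase to the large subunit, averaged 3.83 ± 0.191 FPKM in OGTBKO and 2.84 ± 0.370 FPKM in WT tissue (log2 change 0.38, limma adjusted p = 0.0425), a call that ended in each of the 8 fits without 1 library. Mterf3 averaged 4.36 ± 0.792 FPKM in OGTBKO and 7.15 ± 1.72 FPKM in WT tissue and Malsu1 averaged 5.28 ± 0.774 FPKM in OGTBKO and 3.81 ± 0.477 FPKM in WT tissue; neither passed (limma adjusted p = 0.0511 and 0.0525).

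The list of mitochondrial translation factors, which also holds Lrpprc, Slirp, Oxa1l and Letm1, had 14 genes tested. Of these 14, 2 were called higher and 1 lower, with a median log2 change of 0.15. These are 14.3% and 7.14%, against 8.11% and 7.46% of all genes tested. The initiation factor Mtif3 averaged 3.45 ± 0.374 FPKM in OGTBKO and 2.30 ± 0.279 FPKM in WT tissue (log2 change 0.50, limma adjusted p = 0.0226). The elongation factor Tsfm averaged 11.7 ± 0.432 FPKM in OGTBKO and 7.50 ± 1.71 FPKM in WT tissue (log2 change 0.63, limma adjusted p = 0.0295), and neither call held with the trend removed (limma adjusted p = 0.0521 for Mtif3 and 0.0744 for Tsfm). Both calls also ended without OGTBKO 2, OGTBKO 3, OGTBKO 4 or WT 4, and that of Mtif3 without WT 2. Mtrf1, of the release factor family, averaged 2.88 ± 0.301 FPKM in OGTBKO and 3.86 ± 0.220 FPKM in WT tissue (log2 change -0.37, limma adjusted p = 0.0365), a call that ended in each of the 8 fits without 1 library. The elongation factor Tufm averaged 75.4 ± 3.84 FPKM in OGTBKO and 61.1 ± 4.78 FPKM in WT tissue without overlap, and did not pass (log2 change 0.30, limma adjusted p = 0.0624).

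The RNA partners of these proteins did not pass the test. The small-subunit ribosomal RNA gene mt-Rnr1 averaged 3769 ± 621 FPKM in OGTBKO and 5122 ± 1602 FPKM in WT tissue (log2 change -0.41, limma adjusted p = 0.243). The large-subunit gene mt-Rnr2 averaged 4358 ± 1108 FPKM in OGTBKO and 7371 ± 1699 FPKM in WT tissue (log2 change -0.76, limma adjusted p = 0.0562). Both lay below the median level of the mitochondrial messenger RNAs, 20805 FPKM. How far they reflect the ribosomal RNA of the tissue was not tested. Of the 13 messenger RNAs of the mitochondrial genome, 0 were called higher and 2 lower (limma), mt-Co3 and mt-Atp8. The share called lower was 15.4%, against 7.46% of all genes tested. The median log2 change was -0.68, and it ranged from -0.76 to -0.43 with 1 library left out. In those fits 0 to 3 were called lower. At an unadjusted p under 0.05 (limma) 0 were higher and 6 lower, against 2201 and 2114 of the 13171 genes tested. With the trend removed the median was -0.39, and neither call held (limma adjusted p = 0.0572 for mt-Co3 and 0.168 for mt-Atp8).

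Other large sets of genes were set beside the same shares of all genes tested, 8.11% called higher and 7.46% lower, or 5.82% and 4.87% with the trend removed. Of 78 tested cytosolic ribosomal protein genes, 19 were called higher and 2 lower (median log2 change 0.19), and with the trend removed 12 higher and 7 lower (median 0.04). Many cytosolic ribosomal protein genes have near-identical pseudogenes, which makes their counts uncertain. Of 80 tested nuclear-encoded subunits of oxidative phosphorylation, 15 were called higher and 0 lower (median 0.12; at an unadjusted p under 0.05, 23 and 8), and with the trend removed 6 higher and 7 lower (median 0.02). Differences between these lists and the 77 genes were not tested. With the library total as denominator in place of the authors' size factors, 17 of the 77 genes were called higher and 0 lower, against 7.48% and 1.89% of all genes tested in that fit (9.37% in all). The median over all genes then stood at 0.09 and that of the 77 genes at 0.44.

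**Figure D5:**
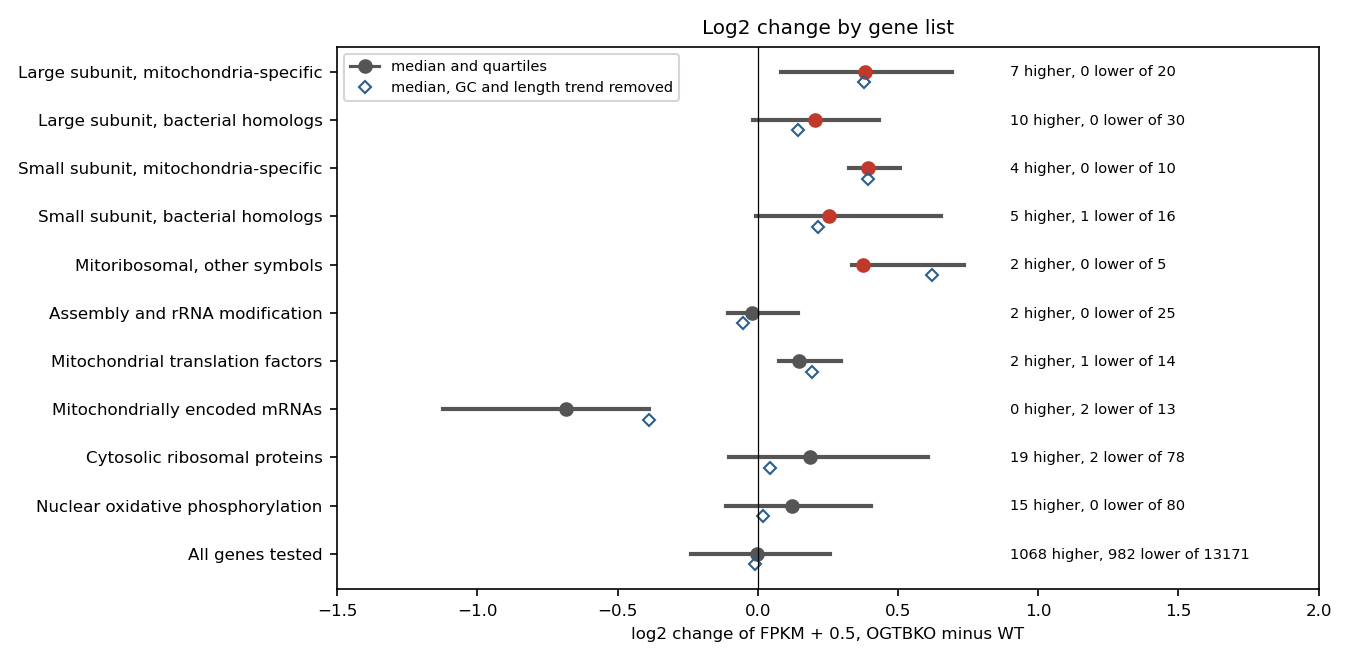
Median (circles) and quartiles (lines) of the log2 change, OGTBKO minus WT on log2(FPKM + 0.5), for each gene list, with open diamonds for the median after removal of the GC content and length trend, and counts of genes passing the test on the right. The 5 lists of mitochondrial ribosomal proteins (red) have medians from 0.20 to 0.39, the messenger RNAs of the mitochondrial genome lie at -0.68, and all genes tested lie at 0.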

How the data were processed

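The authors deposited 1 table of FPKM values per gene for 8 libraries. Reads were processed with HISAT2 2.0.5, featureCounts 1.5.0-p3 and mm10, per the submitters' processing notes. The deposited FPKM values equal whole reads (tolerance 0.01 read) divided by exon length and by size factors times the geometric mean library total; those factors, 0.790 (WT 3) to 1.13 (OGTBKO 3) times the total, scale libraries to the typical gene. No value column was left out.

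Values were compared as log2(FPKM + 0.5) for the 13171 genes with a mean of at least 0.5 FPKM, by limma 3.58.1 in R 4.3.3 (two-sided moderated test, mean-variance trend, no covariates), with Benjamini-Hochberg adjustment over all of them. Errors are SDs of FPKM and SEs of log2 changes. The added 0.5 understates changes of low genes. Positions and exon overlaps come from GENCODE M21, where 73 of the 78 genes had identical coordinates. Chi-squares of back-calculated reads within groups were 16.0 to 99.6 per degree of freedom, above what 1 library sequenced again would give. All 8 libraries were counted as separate samples. These values cannot show that the samples came from separate animals. Steps were tested on simulated data.

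The genes and lists were chosen with earlier results of these data known. Named genes were those with the 24 smallest p among calls, the 5 highest and 3 lowest levels, the 5 largest changes each way, 12 genes with known roles, and calls that began or ended with the GC content and length trend removed. Protein sequences were not used here.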

Additional observations from a re-analysis of the deposited data

Results flagged for a closer look

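In 4 of the 94 groups of 4 libraries examined, 1 library stood far from the other 3, with a gap, as a part of the whole range, above Dixon's critical value at the 95% level. Chance flags about 1 group in 20, which is close to this count. Mrps27 measured 20.3 FPKM in OGTBKO 1, against 22.6 to 23.0 FPKM in the other OGTBKO libraries; without that library it was still called higher (limma adjusted p = 0.0479). Mrpl16 measured 31.1 FPKM in WT 3, with 38.6 to 39.2 FPKM in WT 1, WT 2 and WT 4. Mrpl35 measured 10.7 FPKM in WT 1, against 9.82 to 9.96 FPKM in the others, and was still called higher without it (limma adjusted p = 0.0247). Mrps22 measured 6.10 FPKM in WT 4, against 5.89 to 5.92 FPKM in the others, and did not pass with or without it (limma adjusted p = 0.0521 with and 0.0962 without).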

How the results depend on the processing

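All 19 alternatives kept the median log2 change of the 77 genes above 0. Pseudocounts of 0.1 and 1 FPKM, a minimum mean of 2 FPKM and robust eBayes left all 27 calls in place. Genes called higher among the 77 numbered 17 with no filter on low values, 17 with the library total as denominator (median 0.44), 31 with array weights, 28 with a minimum mean of 2 FPKM, 19 with the GC content and length trend removed, and 10 to 24 with 1 library left out. Genes called lower numbered 4 with array weights, 2 with the GC content and length trend removed, 0 with no filter or the library total, and 0 to 4 with 1 library left out. Without replicate 1 of both groups, chosen after seeing the data, 0 were lower. Over all genes, calls numbered 1229 with no filter, 3516 with array weights, 1237 with the library total (987 higher and 250 lower, against 1068 and 982 with the authors' scaling), and 694 to 2115 with 1 library left out.

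The labels do not say whether libraries of the same number belong together, and they were not treated as pairs. Deviations of same-numbered libraries correlated at 0.22, 0.17, 0.01 and -0.01. OGTBKO 1 and OGTBKO 2 correlated best with their own number, OGTBKO 3 and OGTBKO 4 with another. With the replicate number as a block, calls over all genes fell to 888 and the 77 genes had 10 higher and 0 lower; with the trend removed as well, 507 genes were called, 10 of the 77 were higher and 0 lower, and Ogt did not pass (log2 change -0.82, limma adjusted p = 0.0515). Genes called under every alternative were Mrpl38, Mrpl39, Mrpl40, Mrpl41, Mrpl49, Mrps21 and Mrps33.

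Of the 46 genes named or called, for which each change was recomputed, 4 with changes near 0 turned sign, none of them called. The log2 change of Mrpl33 came to 0.069 with the library total, 0.105 with the trend removed (with or without the block), 0.081 without replicate 1 of both groups, and -0.155 to 0.072 with 1 library left out, above 0 without OGTBKO 4, WT 1 or WT 2. That of Mrps18a came to 0.046 with the library total and -0.140 to 0.043 with 1 library left out, above 0 without WT 4. That of Mrps18b came to -0.013 with the trend removed (with or without the block). That of Mrps30 came to -0.018 to 0.173 with 1 library left out, below 0 without OGTBKO 4 (-0.0032) or WT 2. The causes were not tested. A test on counts was planned and not run, since the deposited values are FPKM. Depth was between 73 and 2194 reads per gene and library for the 77 genes, which limits the precision of the lowest.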
